A study of Mus musculus with 30 samples.

Results

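The protocadherins are the gene family described here, measured as 35 of the 23303 gene entries of an RNA-seq table of mouse amygdala and trunk blood. An entry belongs to the family if its name, or any symbol in a comma-separated name, begins with Pcdh. One such entry joins 37 symbols of the Pcdha and Pcdhg clusters under a single value and is called the merged entry here. The other members are 22 single Pcdhb genes of the beta cluster and 12 single genes outside the clusters. All mice were adult male wild-type C57BL/6J animals of 2 to 3 months, and RNA from 2 mice was pooled for every library. Home-cage controls (HC) were handled and killed under basal conditions. The FC group was killed 2 h after auditory fear conditioning, and the Immo+FC group was immobilized for 2 h in the week before the same conditioning. Amygdala gave 6 HC, 6 FC and 4 Immo+FC libraries, and blood gave 4 HC, 5 FC and 5 Immo+FC libraries. No group was immobilized without conditioning, so a difference between Immo+FC and FC is measured only on top of conditioning.

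Protocadherins are cell adhesion proteins of the cadherin superfamily that are made above all by neurons. In the alpha and gamma clusters each variable first exon has a promoter of its own and is spliced to constant exons shared by its cluster, whereas each beta gene is a single exon. Neurons choose among these promoters with the help of CTCF and cohesin, and the resulting proteins bind their own kind between cells, which lets a neuron tell its own branches from those of others. The non-clustered genes are read from promoters spread over the genome, act in cell sorting, axon growth and synapse remodelling, and are grouped by their cytoplasmic tails into a delta-1 class (Pcdh1, Pcdh7, Pcdh9, Pcdh11x) and a delta-2 class (Pcdh8, Pcdh10, Pcdh17, Pcdh18, Pcdh19).

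The bases before the transcription start are printed for 3 non-clustered members. Pcdh10 is shown as the highest single member in amygdala, and Pcdh15 and Pcdh9 because they were lower in FC than in HC at an unadjusted p under 0.05. Pcdh7 met the same rule and is not printed, because its window overlaps an annotated exon, and it held none of the motifs searched. The sequences are those of RefSeq on GRCm38.p6, run 5′ to 3′ on the strand of the gene and end at the base before the start. They lie at chr3:45378148-45378397 on the plus strand for Pcdh10, at chr10:73821617-73821866 on the plus strand for Pcdh15 and at chr14:93890680-93890929 on the minus strand for Pcdh9. The Pcdh15 window lies inside that gene as GENCODE draws it, before the start of a shorter transcript. Capitals mark a short CRE site (TGACG), a GC box (GGGCGG) or a TATA box (TATAAA) on either strand.
Pcdh10: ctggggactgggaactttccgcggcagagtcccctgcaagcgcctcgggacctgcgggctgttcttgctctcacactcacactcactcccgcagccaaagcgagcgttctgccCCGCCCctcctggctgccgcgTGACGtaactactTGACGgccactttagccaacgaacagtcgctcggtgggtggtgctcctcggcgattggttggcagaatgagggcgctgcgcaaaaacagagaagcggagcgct
Pcdh15: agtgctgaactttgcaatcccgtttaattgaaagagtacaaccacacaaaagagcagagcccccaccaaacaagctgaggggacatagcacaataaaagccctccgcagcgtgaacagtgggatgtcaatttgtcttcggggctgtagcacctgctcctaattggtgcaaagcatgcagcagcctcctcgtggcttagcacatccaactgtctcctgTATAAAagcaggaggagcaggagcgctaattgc
Pcdh9: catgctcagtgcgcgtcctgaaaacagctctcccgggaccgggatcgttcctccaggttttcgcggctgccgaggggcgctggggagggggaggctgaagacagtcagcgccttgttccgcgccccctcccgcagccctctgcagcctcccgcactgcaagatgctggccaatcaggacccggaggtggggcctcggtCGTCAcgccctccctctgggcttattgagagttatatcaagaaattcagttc

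Promoters were read only for members outside chromosome 18, and a sequence was matched for 9 of these. All beta genes, Pcdhb16 and Pcdhb19 among them, the merged entry, Pcdh1 and Pcdh12 lie on chromosome 18 and were left out. The short CRE site, the short form of the site of the activity-dependent factor CREB, was in the windows of Pcdh10 and Pcdh9, that is in 2 of 9, against 17.8% of all promoter windows of this length. The window of Pcdh10 held 2 of them. A GC box was in 4 of 9 (Pcdh10, Pcdh17, Pcdh18 and Pcdh19) against 32.7% of all windows, and a TATA box in 2 of 9 (Pcdh15 and Pcdh8) against 12.4%. The E-box CACGTG was in none of the 9 and in 6.02% of all windows. These letter matches are a description of the windows and were not tested as sites.

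The amygdala libraries held 23148078 to 31366290 sequences and the blood libraries 9081977 to 25892322, the shallowest being HC library 4 of blood. Of these, 91.3% to 92.3% mapped to a single place in amygdala and 60.1% to 72.6% in blood. Snap25 and the other 12 neuron markers were present in all amygdala libraries, with summed levels of 3007 to 3543 FPKM. Choroid plexus markers, which belong to tissue next to the amygdala, ran from 4.40 to 1059 FPKM in HC, from 5.22 to 913 in FC and from 115 to 968 in Immo+FC. Striatal neuron markers summed to 85.0 to 267.1 FPKM in HC, 93.1 to 275.8 in FC and 116.7 to 254.9 in Immo+FC. Their medians were 137.1, 141.4 and 224.4 FPKM, and 0 of the 6 tested were at an unadjusted p under 0.05 in limma in any amygdala comparison. The part of both lists in the protocadherin values was not tested. In blood, neutrophil, lymphocyte, monocyte and platelet markers were present, and of the erythroid markers Alas2 was listed at 0 in every library while the others summed to at least 473.9 FPKM.

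The amygdala libraries differed in their long transcripts, within HC and within Immo+FC as well as between groups. A score was taken as the mean log2 deviation of 315 genes with a longest transcript over 10000 bases, protocadherins left out. It was -0.32 to -0.09 in the 6 FC libraries, -0.18 and -0.13 in HC libraries 1 and 2 and -0.22 in Immo+FC library 1. It was 0.21 to 0.26 in HC libraries 3 to 6 and 0.21 to 0.24 in Immo+FC libraries 2 to 4.

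In amygdala all 35 entries were above 0 in each of the 16 libraries, and 30 reached the mean of 0.5 FPKM (fragments per kilobase of transcript, scaled to the depth of the library) that was set for testing. The merged entry had the highest level, with 169.5 FPKM on average and 139.7 to 181.9 over the libraries. It ranked at position 244 among all entries and made up 47.8% to 51.6% of the summed protocadherin FPKM of a library. The sources used here do not give how a length was set for an entry that spans both clusters, so its level cannot be set beside that of a single gene as closely as single genes can be set beside each other. Its alpha symbols span chr18:36930184-37187661 and its gamma symbols chr18:37661793-37841873 in GENCODE vM21 on GRCm38, and the beta genes stand between them at chr18:37264938-37524479.

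Of the non-clustered members in amygdala, Pcdh10 was highest with a mean of 35.7 FPKM. Pcdh10 steers axons and the removal of synapses. Pcdh1 followed at 29.4 FPKM, Pcdh8, an activity-regulated gene also known as arcadlin, at 17.7, Pcdh9 at 16.7 and Pcdh7 at 13.5. Pcdh17 had 10.2 FPKM, Pcdh19, an X-linked epilepsy gene, had 7.0, and Pcdh20 had 6.18. Pcdh15, which forms the tip link of hair cells in the ear, had 2.40 FPKM, Pcdh18 had 2.31 and the X-linked Pcdh11x had 1.23. Pcdh12, known from endothelial cells, was at 0.0840 FPKM and was not tested.

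Neighbours in this order were not always apart. The libraries of Pcdh10 covered 27.7 to 41.4 FPKM and those of Pcdh1 21.4 to 34.4, and Pcdh8, Pcdh9 and Pcdh7 overlapped in the same way. Every library of Pcdh1 stood above the 19.1 FPKM that was the highest of Pcdh9. Pcdh15 and Pcdh18 had nearly the same mean and overlapping ranges.

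The beta genes were lower. The 18 of them that were tested had means of 0.691 FPKM (Pcdhb6) to 3.80 FPKM (Pcdhb17) with a median of 1.19, and the 4 that were not tested, Pcdhb1, Pcdhb2, Pcdhb4 and Pcdhb21, had means of 0.0572, 0.422, 0.470 and 0.421 FPKM. All 22 have 1 exon in their longest annotated transcript. Pcdhb21 and Pcdhb22 overlap on the same strand and share 7.71% and 5.45% of their read-length windows, so the counting could split reads between them, whereas each other beta gene shared at most 2.26% of its windows with any other family member. No non-clustered gene shared a window.

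The levels were steady over the 16 amygdala libraries. The coefficient of variation was 5.90% for the merged entry, 6.41% for Pcdhb17 and 7.33% for Pcdhb9. It was over 20% for 4 of the 30 tested entries, Pcdhb16 (35.3%), Pcdhb19 (26.6%), Pcdh20 (23%) and Pcdhb6 (20.3%). The median over the 30 entries was 12.5%. The plot of amygdala levels shows this order and spread.

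**Figure D1:**
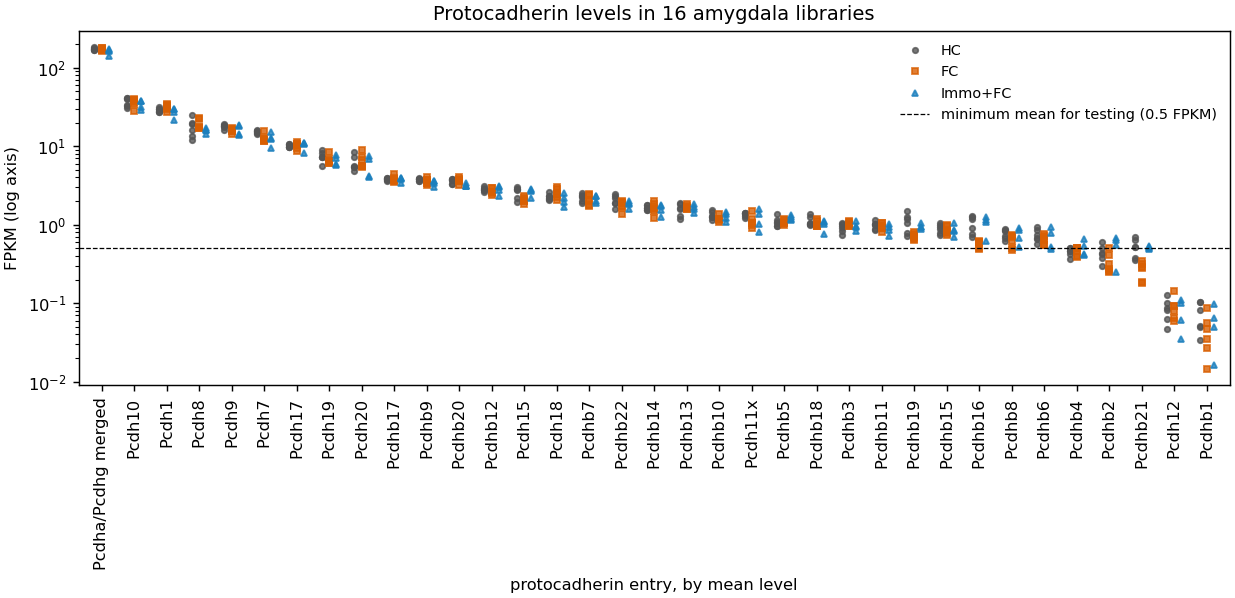
Level of each of the 35 protocadherin entries (x axis, by mean) in FPKM on a log y axis, 1 point per amygdala library, in grey circles for HC, orange squares for FC and blue triangles for Immo+FC. The merged entry sits at 139.7 to 181.9 FPKM, above all single members, and 5 entries have means under the dashed line at 0.5 FPKM.

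The first comparison asked which protocadherins differed 2 h after fear conditioning, FC against HC in amygdala. None of the 30 tested entries passed an adjusted p of 0.05 in limma (Benjamini-Hochberg over 13508 entries), where 0.0148% of all entries passed. At an unadjusted p under 0.05, 5 entries were lower in FC and 0 higher, that is 16.7% and 0% of the family, against 6.48% of all entries lower and 6.59% higher. Below 0 in log2 fold change were 22 of the 30, and the share of all entries below 0 was not counted. The median of the 30 was -0.06 against 0.01 over all entries tested. With the libraries scaled by median ratios, the entries at an unadjusted p under 0.05 were 1103 lower and 696 higher, against 875 and 890 without scaling, and the count of protocadherins stayed at 5 lower and 0 higher.

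Of the beta genes, Pcdhb16 had 0.692 to 1.28 FPKM in HC with a median of 1.05, and 0.491 to 0.621 FPKM in FC with a median of 0.596. Every FC library was below every HC library. Its log2 fold change was -0.70 (SE 0.17, limma unadjusted p = 0.000731, adjusted p = 0.106). In bulk samples such as these, fewer cells of a type and less RNA per cell cannot be told apart. With each of the 16 libraries left out in turn, the log2 fold change ran from -0.79 to -0.63. Pcdhb16 passed an adjusted p of 0.05 only without HC library 1 (-0.79, limma adjusted p = 0.0390) or with Immo+FC library 1 left out of the shared spread (-0.70, limma adjusted p = 0.0451). Pcdhb19 had 0.724 to 1.51 FPKM in HC with a median of 1.12 and 0.639 to 0.818 in FC with a median of 0.701. Its 2 lowest HC libraries were among the FC values, and the log2 fold change was -0.51 (SE 0.14, limma unadjusted p = 0.00230, adjusted p = 0.128). Both genes lie toward the downstream end of the beta cluster, Pcdhb16 at chr18:37477814-37483038 and Pcdhb19 at chr18:37496991-37504128. Pcdhb17 and Pcdhb18 lie between them, and their log2 fold changes were 0.00 and -0.10, each with an unadjusted p over 0.05.

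Pcdhb21, which was under the minimum for testing and is named here after its values were seen, had 0.349 to 0.696 FPKM in HC and 0.180 to 0.341 FPKM in FC. The groups did not overlap in this gene either, though its highest FC and lowest HC values were close. The share of all entries whose groups do not overlap was not counted, in this or any other comparison. Pcdhb22, which overlaps it, had 1.60 to 2.46 FPKM in HC and 1.37 to 1.98 FPKM in FC, and these ranges overlapped.

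Among the non-clustered genes 3 were lower at an unadjusted p under 0.05. Pcdh7, a delta-1 protocadherin, had 14.2 to 16 FPKM in HC with a median of 15.2 and 11.6 to 15.4 in FC with a median of 12.0. FC library 5, at 15.4 FPKM, stood among the HC libraries, and the other 5 FC libraries were at or below 12.7. The log2 fold change was -0.27 (SE 0.09, limma unadjusted p = 0.00689, adjusted p = 0.173). Pcdh15 had 1.94 to 2.99 FPKM in HC with a median of 2.80 and 1.81 to 2.3 in FC with a median of 2.04, a log2 fold change of -0.31 (SE 0.10, limma unadjusted p = 0.00809, adjusted p = 0.185). Pcdh9, also of the delta-1 class, had 16.1 to 19.1 FPKM in HC with a median of 17.9 and 14.2 to 17.0 in FC with a median of 15.9, a log2 fold change of -0.17 (SE 0.07, limma unadjusted p = 0.0255, adjusted p = 0.292). The groups overlapped in Pcdh15 and in Pcdh9.

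The highest members stood apart from these. The merged entry had 168.2 to 181.9 FPKM in HC with a median of 171.9 and 164.2 to 180.7 in FC with a median of 171.7, a log2 fold change of -0.02 (SE 0.05), and an exact two-sided permutation of the 12 libraries gave p = 0.617. Pcdh10 had a median of 36.6 FPKM in HC and 37.9 in FC. For Pcdh8, HC libraries ran from 12.0 to 25.2 FPKM and FC libraries from 17.0 to 22.6, so that HC enclosed FC.

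Pcdhb16 followed the division of the libraries by the long transcript score, with 0.692 and 0.759 FPKM in HC libraries 1 and 2 against 0.910 to 1.28 in the other HC libraries, and with 0.617 FPKM in Immo+FC library 1 against 1.09 to 1.27 in the others. The longest annotated transcript of Pcdhb16 is 5225 bases and that of Pcdh15 is 9104 bases, so neither reaches the length that defines the score.

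With the score in the fit as a covariate, the FC minus HC log2 fold change in limma was -0.24 (SE 0.12) for Pcdhb16, -0.22 (SE 0.14) for Pcdhb19, -0.03 (SE 0.07) for Pcdh15, -0.16 (SE 0.11) for Pcdh7 and -0.08 (SE 0.08) for Pcdh9. No member was then lower at an unadjusted p under 0.05, against 4.22% of all entries, and 2 of 30 were higher, against 9.27% of all entries. These were Pcdh1 at 0.27 (SE 0.07, limma unadjusted p = 0.00225, adjusted p = 0.189) and Pcdh18 at 0.27 (SE 0.12, limma unadjusted p = 0.0373, adjusted p = 0.341). All FC libraries had a score below 0, so within FC the score and the conditioning cannot be told apart. What the score stands for was not tested. The plot by library shows the score beside 5 members.

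**Figure D2:**
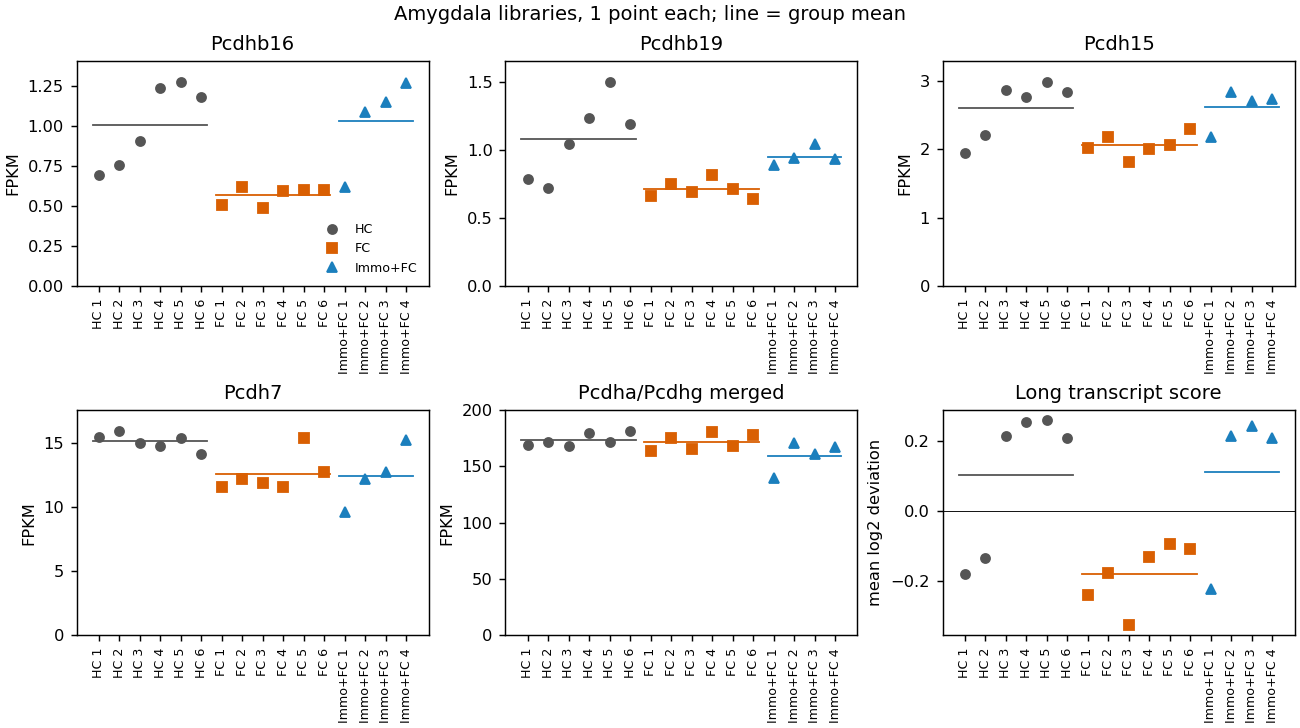
FPKM of Pcdhb16, Pcdhb19, Pcdh15, Pcdh7 and the merged entry, and the long transcript score (mean log2 deviation of 315 genes), in each amygdala library, with 1 point per library and a line at each group mean. HC libraries 1 and 2 and Immo+FC library 1 share a score below 0 with all 6 FC libraries, and Pcdhb16 is at 0.759 FPKM or less in those 9 libraries and at 0.910 FPKM or more in the other 7.

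The second comparison asked which protocadherins differed after conditioning in mice that had been immobilized before, Immo+FC against FC in amygdala. It shares its FC libraries with the first comparison, so the directions of the pair are not independent. None of the 30 entries passed an adjusted p of 0.05 in limma, where 0.0222% of all entries passed. At an unadjusted p under 0.05, 3 of the 30 entries were higher and 4 lower, against 3.94% of all entries higher and 6.49% lower. The median over the 30 entries was -0.02, the same as the -0.02 over all entries tested. With median-ratio scaling all entries split into 757 higher and 456 lower, against 532 and 877 without it, and the protocadherins into 3 higher and 3 lower, the merged entry no longer among them.

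The 3 higher entries were Pcdhb16, Pcdhb19 and Pcdh15. Pcdhb16 was at 0.617, 1.09, 1.15 and 1.27 FPKM in the 4 Immo+FC libraries against a median of 0.596 in FC. Library 1 lay within the FC range and the other 3 above it, and the log2 fold change was 0.72 (SE 0.19, limma unadjusted p = 0.00150, adjusted p = 0.187). With each library left out in turn it ran from 0.62 to 0.93. Pcdhb16 passed an adjusted p of 0.05 here only without Immo+FC library 1 (0.93, limma adjusted p = 0.0497). Pcdhb19 was at 0.889, 0.940, 1.05 and 0.937 FPKM, all above the highest FC library at 0.818, with a log2 fold change of 0.38 (SE 0.16, limma unadjusted p = 0.0293, adjusted p = 0.404). Pcdh15 was at 2.19, 2.83, 2.70 and 2.74 FPKM. Library 1 lay within the FC range and the other 3 above its highest value of 2.3, with a log2 fold change of 0.33 (SE 0.11, limma unadjusted p = 0.0113, adjusted p = 0.325). When the long transcript score entered the fit, these differences were 0.25 (SE 0.13), 0.08 (SE 0.15) and 0.04 (SE 0.08).

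Part of the neuron marker list differed in this comparison. Of the 13, 5 were lower at an unadjusted p under 0.05, where 6.49% of all entries were, and 0 were higher. These were Nefl (-0.22), Nefm (-0.23), Gad1 (-0.19), Map2 (-0.13) and Eno2 (-0.11) in log2 fold change. Snap25, Syt1, Slc17a7, Syp and Rbfox3 were not among them, and 0 of the 13 passed an adjusted p of 0.05 in limma. In FC minus HC 4 of 13 were higher at an unadjusted p under 0.05, against 6.59% of all entries, and 0 lower. The part of these markers in the protocadherin values was not tested. The 4 lower entries were the merged entry, Pcdhb20, Pcdh1 and Pcdh18. The merged entry was at 139.7, 171.0, 161.0 and 166.9 FPKM in Immo+FC against 164.2 to 180.7 in FC. Library 1 was the lowest of all 16 amygdala libraries, and the log2 fold change of -0.11 (SE 0.05, limma unadjusted p = 0.0451, adjusted p = 0.467) became -0.05 without it. An exact two-sided permutation of the 10 libraries gave p = 0.105 for the merged entry. Pcdhb20 was at 3.08, 3.12, 3.10 and 3.38 FPKM against a median of 3.64 in FC, with a log2 fold change of -0.20 (SE 0.07, limma unadjusted p = 0.0127, adjusted p = 0.341). With the long transcript score in the fit the log2 fold changes were -0.20 (SE 0.05) for the merged entry and -0.15 (SE 0.08) for Pcdhb20.

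Pcdh1, a delta-1 member, was at 21.4, 29.8, 30.1 and 27.3 FPKM against 27.3 to 34.4 in FC. Its log2 fold change of -0.21 (SE 0.08, limma unadjusted p = 0.0229, adjusted p = 0.384) was -0.10 without Immo+FC library 1. Pcdh18, a delta-2 member, was at 1.68, 1.94, 2.17 and 2.51 FPKM against 2.08 to 3.01 in FC, a log2 fold change of -0.27 (SE 0.11, limma unadjusted p = 0.0321, adjusted p = 0.418) that was -0.17 without that library. Pcdh8 had no FC library within the Immo+FC range, with 16.1, 14.4, 16.2 and 16.8 FPKM in Immo+FC and 17.0 to 22.6 in FC, but its log2 fold change of -0.25 (SE 0.16) had an unadjusted p over 0.05. With the long transcript score in the fit the log2 fold changes were -0.37 (SE 0.08, limma adjusted p = 0.118) for Pcdh1 and -0.41 (SE 0.13, limma adjusted p = 0.176) for Pcdh18.

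**Figure D3:**
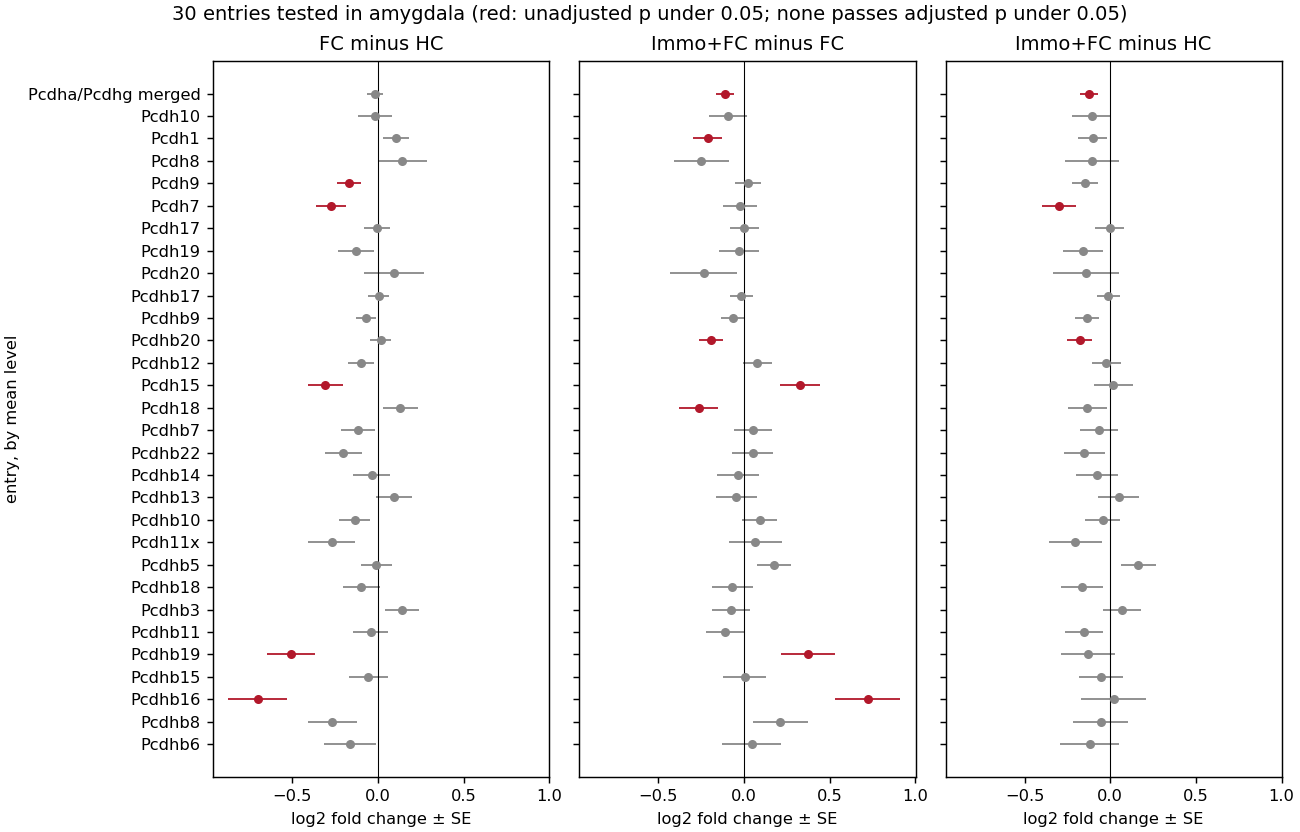
log2 fold change with its standard error (x axis) for the 30 tested protocadherin entries (y axis, by mean level) in the 3 amygdala comparisons, red where the unadjusted limma p is under 0.05. Pcdhb16, Pcdhb19 and Pcdh15 are below 0 in FC minus HC and above 0 in Immo+FC minus FC, which share the FC libraries, and near 0 or slightly below it in Immo+FC minus HC.

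The third comparison set Immo+FC against HC in amygdala and shares libraries with both others. None of the 30 entries passed an adjusted p of 0.05 in limma, where 0.200% of all entries passed. At an unadjusted p under 0.05, 3 of the 30 were lower, against 7.73% of all entries, and 0 were higher. The family had a median log2 fold change of -0.11 against -0.01 over all entries. Below 0 were 25 of the 30, and the share of all entries below 0 was again not counted. With median-ratio scaling the family's median was -0.09 and its count stayed at 3 lower, while all entries split into 897 higher and 841 lower against 721 and 1044 without it.

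Pcdh7 had the largest difference of the 3. It was at 9.61, 12.2, 12.8 and 15.3 FPKM in Immo+FC against 14.2 to 16 in HC, with a log2 fold change of -0.30 (SE 0.10, limma unadjusted p = 0.00829, adjusted p = 0.219). Library 4 lay within HC and the other 3 below it. The log2 fold change of Pcdh7 was -0.18 without library 1, and without library 4 it was -0.40 (limma adjusted p = 0.0487). These were the ends of its range over all left-out libraries, and Pcdh7 passed an adjusted p of 0.05 only without library 4. Pcdhb20 had a median of 3.11 FPKM in Immo+FC and 3.71 in HC, a log2 fold change of -0.18 (SE 0.07, limma unadjusted p = 0.0206, adjusted p = 0.284). The merged entry had a log2 fold change of -0.13 (SE 0.05, limma unadjusted p = 0.0250, adjusted p = 0.304), which was -0.06 without Immo+FC library 1, and the exact two-sided permutation of 10 libraries gave p = 0.0381, or 0.114 adjusted over the 6 comparisons of this entry. With the long transcript score in the fit the log2 fold changes were -0.30 (SE 0.09) for Pcdh7, -0.18 (SE 0.07) for Pcdhb20 and -0.13 (SE 0.04) for the merged entry, the same to within 0.01 as without it.

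Genes that work with the protocadherins were read from the same fits, and no member of these lists passed an adjusted p of 0.05 in limma in amygdala. Of 12 symbols listed for regulators of the clustered promoters 10 were tested, and Wapal and Wapl of that list name the same gene. CTCF and the cohesin subunits were not among the members at an unadjusted p under 0.05. Nipbl, the cohesin loader, was higher in Immo+FC than in FC by 0.37 on the log2 scale (SE 0.14, limma unadjusted p = 0.0160, adjusted p = 0.360) and was the only member of that list at an unadjusted p under 0.05 in any amygdala comparison. Of the 11 genes of the WAVE complex, which links delta protocadherin tails to actin, and of adhesion kinases, 0 were at an unadjusted p under 0.05 in FC against HC and 3 of 11 were lower in Immo+FC against FC, where 6.49% of all entries were, and 3 of 11 against HC, where 7.73% were. Both comparisons share the Immo+FC libraries, and the 3 genes were Wasf1, Abi2 and Fyn, with log2 fold changes of -0.16, -0.13 and -0.11 against FC (SE 0.06, 0.05 and 0.05).

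In the wider cadherin superfamily 19 of 20 listed classical and type II cadherins and catenins were tested in amygdala, and 2 were lower in FC than in HC at an unadjusted p under 0.05, Cdh6 by -0.75 (SE 0.26) and Cdh12 by -0.38 (SE 0.17) on the log2 scale, where 6.48% of all entries were lower. In Immo+FC against FC 2 were higher, Cdh6 by 1.03 (SE 0.29) and Cdh12 by 0.48 (SE 0.19), and 3 were lower, Cdh4 by -0.29 (SE 0.09), Ctnnb1 by -0.13 (SE 0.04) and Cdh9 by -0.48 (SE 0.18), against 3.94% of all entries higher and 6.49% lower. Of 7 tested atypical cadherins 1, Fat4, was lower in FC than in HC, by -0.50 (SE 0.14) on the log2 scale, against 6.48% of all entries. In Immo+FC against FC and against HC 1 of 7 was lower as well, where 6.49% and 7.73% of all entries were. These lists were not read from the fit with the long transcript score. Of the 10 symbols listed for partners of Pcdh15 in the hair cell tip link, 4 reached the minimum in amygdala. Whrn and Dfnb31 of that list name the same gene. None of the 4 was at an unadjusted p under 0.05 in FC against HC. In Immo+FC against FC, Tmie was lower by -0.34 on the log2 scale (SE 0.14, limma unadjusted p = 0.0272, adjusted p = 0.394). In blood 0 members of these lists passed an adjusted p of 0.05 in limma. Ctnnd1, the p120 catenin, had the lowest unadjusted p there, with a log2 fold change of -1.15 in FC minus HC (SE 0.32, limma unadjusted p = 0.00289, adjusted p = 0.168).

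In blood most of the family was at low values. Only the merged entry reached the minimum, with a mean of 1.69 FPKM, and 34 entries were below it. Of these, 8 beta genes were listed at 0 in every library, which in a table without read numbers need not mean absence, since the erythroid gene Alas2 was listed at 0 too. A library had 4 to 15 of the 35 entries above 0, and beside the merged entry only Pcdh7 was above 0 in all 14. Pcdh7 had a mean of 0.453 FPKM, Pcdh10 of 0.201 and Pcdh1 of 0.129, and the other 9 non-clustered genes were at or below 0.0748 FPKM. Amygdala and blood were normalized separately, so the tissues are set side by side only as values.

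The merged entry was at 2.63, 1.40, 3.87 and 3.45 FPKM in the 4 HC libraries of blood. The FC libraries had 1.33, 0.763, 1.13, 0.970 and 1.66 FPKM, and the Immo+FC libraries had 0.946, 1.53, 1.44, 1.70 and 0.889 FPKM. HC libraries 1, 3 and 4 stood above all FC and Immo+FC libraries, and HC library 2 stood among them. The log2 fold change was -1.16 in FC minus HC (SE 0.30, limma unadjusted p = 0.00166, adjusted p = 0.140) and -1.02 in Immo+FC minus HC (SE 0.30, limma unadjusted p = 0.00434, adjusted p = 0.121), 2 comparisons that share the HC libraries. An unadjusted p under 0.05 in the lower direction was reached by 5.87% and 8.12% of the 11656 entries tested in blood, and an adjusted p under 0.05 by 0.0343% and 0.0686%. In Immo+FC minus FC the log2 fold change was 0.14 (SE 0.28, limma adjusted p = 0.918), and 0% of entries passed in limma at an adjusted p of 0.05 while 1112 of all entries were at an unadjusted p under 0.05.

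An exact two-sided permutation of the merged entry in blood gave p = 0.0317 for FC against HC and p = 0.0635 for Immo+FC against HC, where the smallest p that 9 libraries allow is 0.0159. Adjusted over the 6 comparisons these were 0.114 and 0.127.

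Most markers of neurons moved with the merged entry in blood. Gad1 overlapped between the groups, at 8.81 to 16.4 FPKM in HC, 7.44 to 10.6 in FC and 8.06 to 9.34 in Immo+FC. Its median in FC was 9.42 FPKM, beside a median of 15.5 FPKM for the sum of all 13 markers. The summed level of the 13, Gad1 among them, was 26.0 to 79.2 FPKM in HC, 12.8 to 29.5 in FC and 11.5 to 29.3 in Immo+FC. No marker of the list was at 0 in every library of a group. Snap25, a presynaptic gene, was at 11.7, 3.60, 14.5 and 16.5 FPKM in HC, at 0.142 to 4.21 in FC and at 0.0747 to 4.37 in Immo+FC. HC library 2 was thus the lowest HC library in Snap25 as in the merged entry. Astrocyte markers summed to 5.99 to 16.3 FPKM in HC and 2.99 to 7.96 in FC, but Gfap of that list overlapped, at 0.806 to 1.68 and 0.660 to 1.77 FPKM. Oligodendrocyte lineage markers summed to 169.8 to 252.4 FPKM in HC and 199.8 to 231.7 in FC. Lymphocyte markers summed to 1291 to 2428 FPKM in HC and 2215 to 2796 in FC. Neutrophil markers summed to 4298 to 28665 FPKM in HC, 8051 to 19680 in FC and 11858 to 43189 in Immo+FC.

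The ratio of the merged entry to Snap25 was 0.209 to 0.389 in the HC libraries of blood, 0.395 to 5.37 in FC and 0.389 to 11.9 in Immo+FC, beside 0.166 to 0.215 in the amygdala libraries. At the 2 blood libraries with the least Snap25, 0.142 FPKM in FC library 2 and 0.0747 FPKM in Immo+FC library 5, the merged entry was at 0.763 and 0.889 FPKM. The part of neuron RNA in the blood values of the merged entry was not tested.

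Most other non-clustered members detected in blood were highest in HC like the merged entry, whereas Pcdh7 was not. Pcdh10 was at 0.583, 0.198, 0.660 and 0.501 FPKM in HC, at 0.0705, 0.0168, 0.0401, 0 and 0.0860 FPKM in FC, whereas the Immo+FC libraries had 0, 0.0414, 0.270, 0.292 and 0.0487 FPKM. Every HC library was above every FC library. Its ratio to Snap25 was 0.0304 to 0.0549 in the HC blood libraries, 0 to 0.118 in FC and 0 to 0.652 in Immo+FC, beside 0.0277 to 0.0480 in the amygdala libraries. Pcdh1, Pcdh8, Pcdh9 and Pcdh17 also had higher means in HC, at 0.302, 0.177, 0.183 and 0.150 FPKM, than in FC, at 0.0336, 0.0381, 0.0346 and 0.0318 FPKM. The means of these members over the blood libraries are under the minimum for testing, and the read numbers behind them are not given.

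Pcdh7 did not share this order. It was at 0.576, 0.357, 0.404 and 0.482 FPKM in HC, at 0.485, 0.453, 0.762, 0.418 and 0.358 in FC, and at 0.215, 0.577, 0.489, 0.260 and 0.502 in Immo+FC. The 3 groups overlapped throughout. In FC library 2 and Immo+FC library 5, where Snap25 was lowest, Pcdh7 was at 0.453 and 0.502 FPKM.

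**Figure D4:**
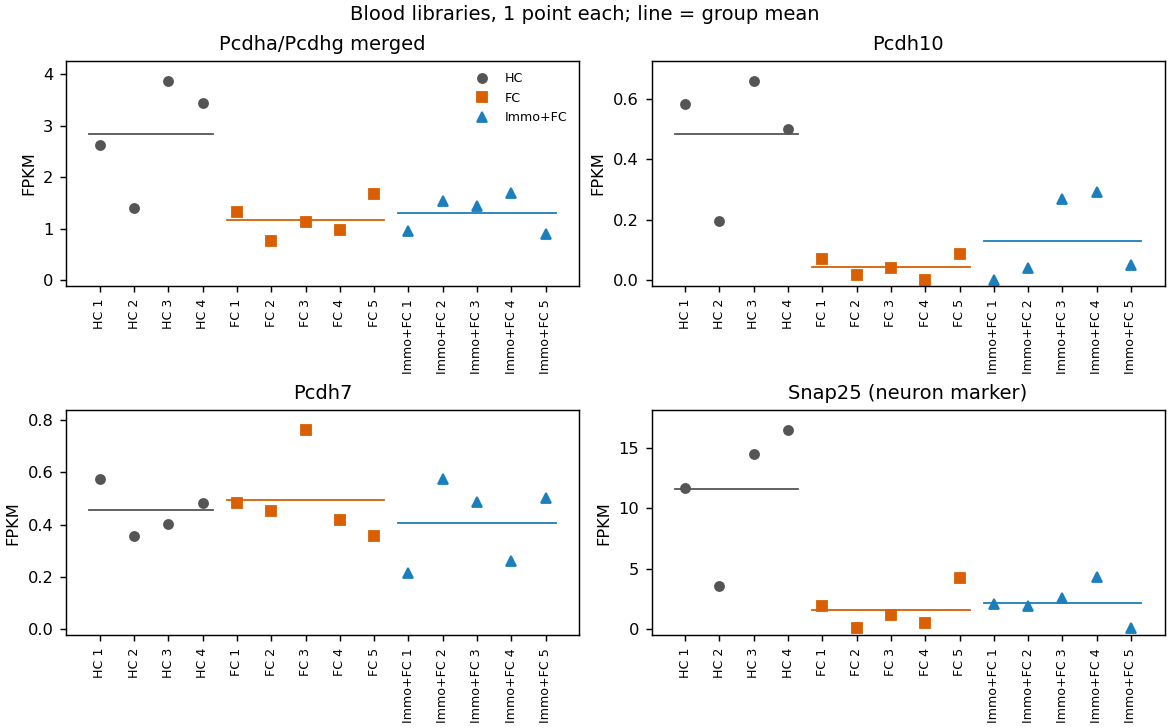
FPKM of the merged entry, Pcdh10, Pcdh7 and the neuron marker Snap25 in each blood library, with 1 point per library and a line at each group mean. HC libraries 1, 3 and 4 are highest for the merged entry, Pcdh10 and Snap25, whereas Pcdh7 lies at 0.215 to 0.762 FPKM in all 3 groups.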

How the data were processed

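Poly-A selected libraries of amygdala RNA and of globin-depleted blood RNA, each from 2 pooled mice, were sequenced as paired reads. Per the submitters' processing notes, the authors used STAR 2.3, the mm10 build, Cufflinks 2.1.1 and Cuffdiff 2.1.1 to obtain FPKM values. The deposited FPKM table holds 1 value per entry and library, normalized within each tissue, and 272 of its entries join overlapping genes. The library kit does not mark strand. The deposited mapping table gives total sequence counts and mapped percent values.

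FPKM were used as log2(FPKM + 0.1), so fold changes are on that scale and understate those of low genes. Entries whose mean in a tissue reached 0.5 FPKM were fitted with limma 3.58.1 in R 4.3.3 (moderated variances with a trend, 3 groups in 1 fit, no covariates, two-sided), with Benjamini-Hochberg adjustment over all tested entries and a threshold of 0.05. The fit was tested on simulated data. The merged entry was also compared by exact permutation. Read numbers per gene are not in the FPKM table, so no counting intervals are given.

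The members and gene lists were chosen with earlier results of these data known. Named are the merged entry, entries with an unadjusted p under 0.05, the 3 highest per tissue, all non-clustered members, the highest and lowest tested beta gene, and up to 3 members of each other list; Pcdhb21, Pcdh8 and the beta genes beside Pcdhb16 and Pcdhb19 were added after their values were seen. Positions are from GENCODE vM21 and promoters from RefSeq. Alternatives were other pseudocounts and minimums, median-ratio scaling, 2-group fits, a replicate block, array weights, covariates and leaving out each library. Same-numbered libraries did not deviate together (correlations of -0.257 to 0.310 in amygdala and -0.250 to 0.207 in blood), and the replicate number was therefore not used as a block in the main fit.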

Additional observations from a re-analysis of the deposited data

Results flagged for a closer look

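Among 93 groups of libraries examined for a tested entry, 4 had a library far from the rest, where chance gives about 1 in 20. In amygdala Pcdh17 was at 8.12 FPKM in Immo+FC library 1 against 10.7 to 11.1 in the other 3, and Pcdhb20 was at 3.38 FPKM in Immo+FC library 4 against 3.08 to 3.12. FC library 5 stood apart for Pcdh7, at 15.4 FPKM against 11.6 to 12.7, and for Pcdh19, at 8.49 FPKM against 6.13 to 6.82.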

How the results depend on the processing

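The count of protocadherin entries past an adjusted p of 0.05 was 0 in each of the 6 limma comparisons. In amygdala FC minus HC it became 4 with array weights (Pcdhb16, Pcdhb19, Pcdh15 and Pcdh7, all lower) and 1 with the replicate block (Pcdhb16, adjusted p = 0.0389 in limma), and it ranged from 0 to 1 when libraries were left out, with Pcdhb16 passing without HC replicate 1 or without Immo+FC replicate 1. In Immo+FC minus FC it became 1 with array weights (Pcdhb16, higher) and ranged from 0 to 1 (Pcdhb16 without Immo+FC replicate 1), and in Immo+FC minus HC it ranged from 0 to 1 (Pcdh7 without Immo+FC replicate 4). In blood FC minus HC it became 1 with no minimum (Pcdh10, log2 fold change -1.99, limma adjusted p = 0.0441) and ranged from 0 to 0. The cause was not tested. The merged entry in amygdala FC minus HC turned from -0.02 to 0.071 when the long transcript score entered the fit. Among the log2 fold changes at an unadjusted p under 0.05 and those of the merged entry, 454 alternative values kept direction and threshold side. Another 10 came to pass the threshold and 1 turned. Differences near 0 outside this set also turned, such as Pcdh7 in Immo+FC minus FC, from -0.02 to 0.03 with array weights. The permutation results of the merged entry kept both in all 78. For the blood comparisons with HC the smallest p that the libraries allow is 0.0159 before adjustment, and larger with a library left out. Keeping the side of the threshold there was nearly fixed in advance and does not speak for stability. The replicate numbers are only numbers, and the block changed no other call. A fit of blood with a neuron marker score as a covariate is among these alternatives. With it the log2 fold change of the merged entry was -0.23 (SE 0.28) in FC minus HC. In Immo+FC minus HC it was -0.05 (SE 0.29). No conclusion is drawn from this fit, since some markers in that score reached the minimum only through HC. Values under 0.5 FPKM, nearly the whole family in blood, were not tested, and the table holds no read numbers to give their counting error.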

Other observations

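The merged entry carries 37 gene symbols, 15 of the alpha and 22 of the gamma cluster, on a single measured value, which in blood was the only protocadherin value above the minimum for testing. A count of protocadherin genes made by symbol would therefore enter this value 37 times, and would exceed the 34 single entries of the family.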
